A study of Mus musculus with 36 samples.

Results

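The 9 genes described here serve the presentation of antigen on MHC class II molecules: H2-Aa, H2-Ab1, H2-Eb1, Cd74, Ciita, H2-DMa, H2-DMb1, H2-Oa and H2-Ob. They were chosen by name, as the rows of these symbols among 53299 genes of a count table, and all 9 passed the filter on low counts that left 12463 genes. The RNA came from dendritic cells of 2 kinds, cDC2 and cDC1, induced from mouse bone marrow with FLT3 ligand, a growth factor that both kinds share in every group. Each kind was used with LPS_PGPC, with LPS, with PGPC or with Nothing, where LPS is a bacterial lipopolysaccharide sensed by TLR4 and PGPC is an oxidized phospholipid. Each of the 8 groups had 3 replicates, which the series calls biological, except for 2 in cDC2 with PGPC, since replicate 6 of that group held a total of 3805 counts and was left out with 12 alum libraries. The labels give no strain, no age of the animals, no dose or time and no sort of the cells. The values are expected counts per gene made by the authors, scaled here per library to CPM with TMM factors.

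Class II molecules are pairs of an alpha and a beta chain that carry peptides from endosomes to the cell surface, where CD4+ T cells read them. The invariant chain, Cd74, guides the new pairs to endosomes and fills their groove. H2-DM then exchanges its remnant for peptides, and H2-O holds H2-DM back. The transactivator Ciita carries no DNA-binding role of its own and acts through factors that sit on the X and Y boxes of these promoters. In dendritic cells, the pathway is known for its change during maturation.

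The promoters below come from the RefSeq promoter table (GRCm38.p6, from 250 bases before to 50 bases after the start). A start from it was used for 6 of the 9 genes. The promoters are shown because 5 of these 6 held the same pair of motifs, which was chosen after the sequences were seen. The capitals mark GNAAC, the core of an X box, and TGATTGG, a Y box that reads CCAATCA on the other strand, with 23 to 26 bases between them. The windows of 80 bases are at chr17:34287840-34287919 on the minus strand for H2-Aa and on the plus strand at chr17:34305761-34305840 for H2-Eb1, chr17:34153082-34153161 for H2-DMb1, chr17:34092288-34092367 for H2-Oa and chr17:34238803-34238882 for H2-Ob.
H2-Aa: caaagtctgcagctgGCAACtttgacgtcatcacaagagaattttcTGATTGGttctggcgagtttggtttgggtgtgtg
H2-Eb1: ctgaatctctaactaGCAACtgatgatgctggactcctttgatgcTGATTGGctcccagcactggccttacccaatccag
H2-DMb1: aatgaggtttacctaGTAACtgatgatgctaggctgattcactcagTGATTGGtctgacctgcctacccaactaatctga
H2-Oa: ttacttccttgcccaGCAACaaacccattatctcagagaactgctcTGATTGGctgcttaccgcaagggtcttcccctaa
H2-Ob: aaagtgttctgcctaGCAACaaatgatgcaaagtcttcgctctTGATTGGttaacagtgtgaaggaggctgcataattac
The Y box began 50 bases before the start in H2-Aa, 61 in H2-Eb1, 63 in H2-DMb1, 45 in H2-Oa and 59 in H2-Ob. On either strand, the pair at this spacing was in 36 of 32851 promoters (0.11%), TGATTGG alone in 7.82% and GNAAC alone in 84.8%. H2-Eb2, a neighbouring class II beta gene, also held the pair, while the window of H2-DMb2, a second H2-DM beta gene, and the 2 windows of H2-DMa did not. The windows of these named genes were searched only for the pair at this spacing, on the strand of the gene. Either motif alone, or the pair on the other strand, was not looked for there. No start was used for H2-Ab1, Ciita and Cd74, which are named only, so whether they hold the pair was not tested.

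On GRCm38 (GENCODE M21), 7 members lie on chromosome 17, from H2-Oa, which starts at 34092340, to H2-Eb1, which ends at 34316674. Ciita lies on chromosome 16, from 10480059 to 10528418, and Cd74 on chromosome 18, from 60803848 to 60812652. Totals ran from 243870 counts in cDC2 with Nothing, replicate 6, to 16601064 in cDC1 with PGPC, replicate 1, and same-group libraries had a Spearman rho of 0.824 to 0.961 across genes. The share of counts on a ribosomal RNA locus ran from 7.7% to 71.9%, the highest in cDC1 with Nothing, replicate 1. Of the markers fixed for cDC1, Clec9a averaged 0 to 0.619 CPM in the cDC2 groups and 3.61 to 72.2 CPM in the cDC1 groups, while Xcr1 stayed at or under 0.899 CPM in all cDC1 groups but the one with LPS (13.4 CPM). Batf3, Irf8, Cadm1, Naaa, Wdfy4 and Itgae had a higher mean in cDC1 than in cDC2 at each treatment. Tlr3 did so only with PGPC, and with LPS it averaged 2.4 CPM in cDC1 and 24 CPM in cDC2. In the libraries labelled cDC2, Sirpa averaged at least 1062 CPM, against 140 to 748 CPM in cDC1. Itgam averaged 140 to 367 CPM in cDC2 and 42.9 to 227 CPM in cDC1, and was higher in cDC2 at each treatment but LPS. Clec10a, Mgl2 and Cd209a, however, were at or near 0 in cDC2 (at most 2.29 CPM), so these markers go against the label. In cDC1 their group means were at most 5.93 CPM. Irf4 and Clec4a4 averaged at most 5.95 and 1.93 CPM in cDC2, against up to 28.9 and 9.02 CPM in cDC1. The pan dendritic list (Flt3, Zbtb46, Itgax and Dpp4) summed to 133 to 153 CPM in cDC2 with LPS_PGPC, 109 to 231 with LPS, 123 to 179 with PGPC and 26.2 to 90.1 with Nothing. In cDC1 this list summed to 237 to 327, 335 to 420, 330.5 to 464 and 402 to 690 CPM in the same order. All 10 monocyte or macrophage markers averaged over 1 CPM in every cDC2 group, with a summed level of 1260 to 3998 CPM per library. In cDC1, 10 did so with Nothing or PGPC and 8 with LPS or LPS_PGPC, with a summed level of 248 to 2013 CPM. T and NK cell markers reached at most 1.98 CPM in sum in any library. Macrophages and B cells also make class II, and in bulk RNA fewer cells of a type and less RNA per cell cannot be told apart.

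**Figure D1:**
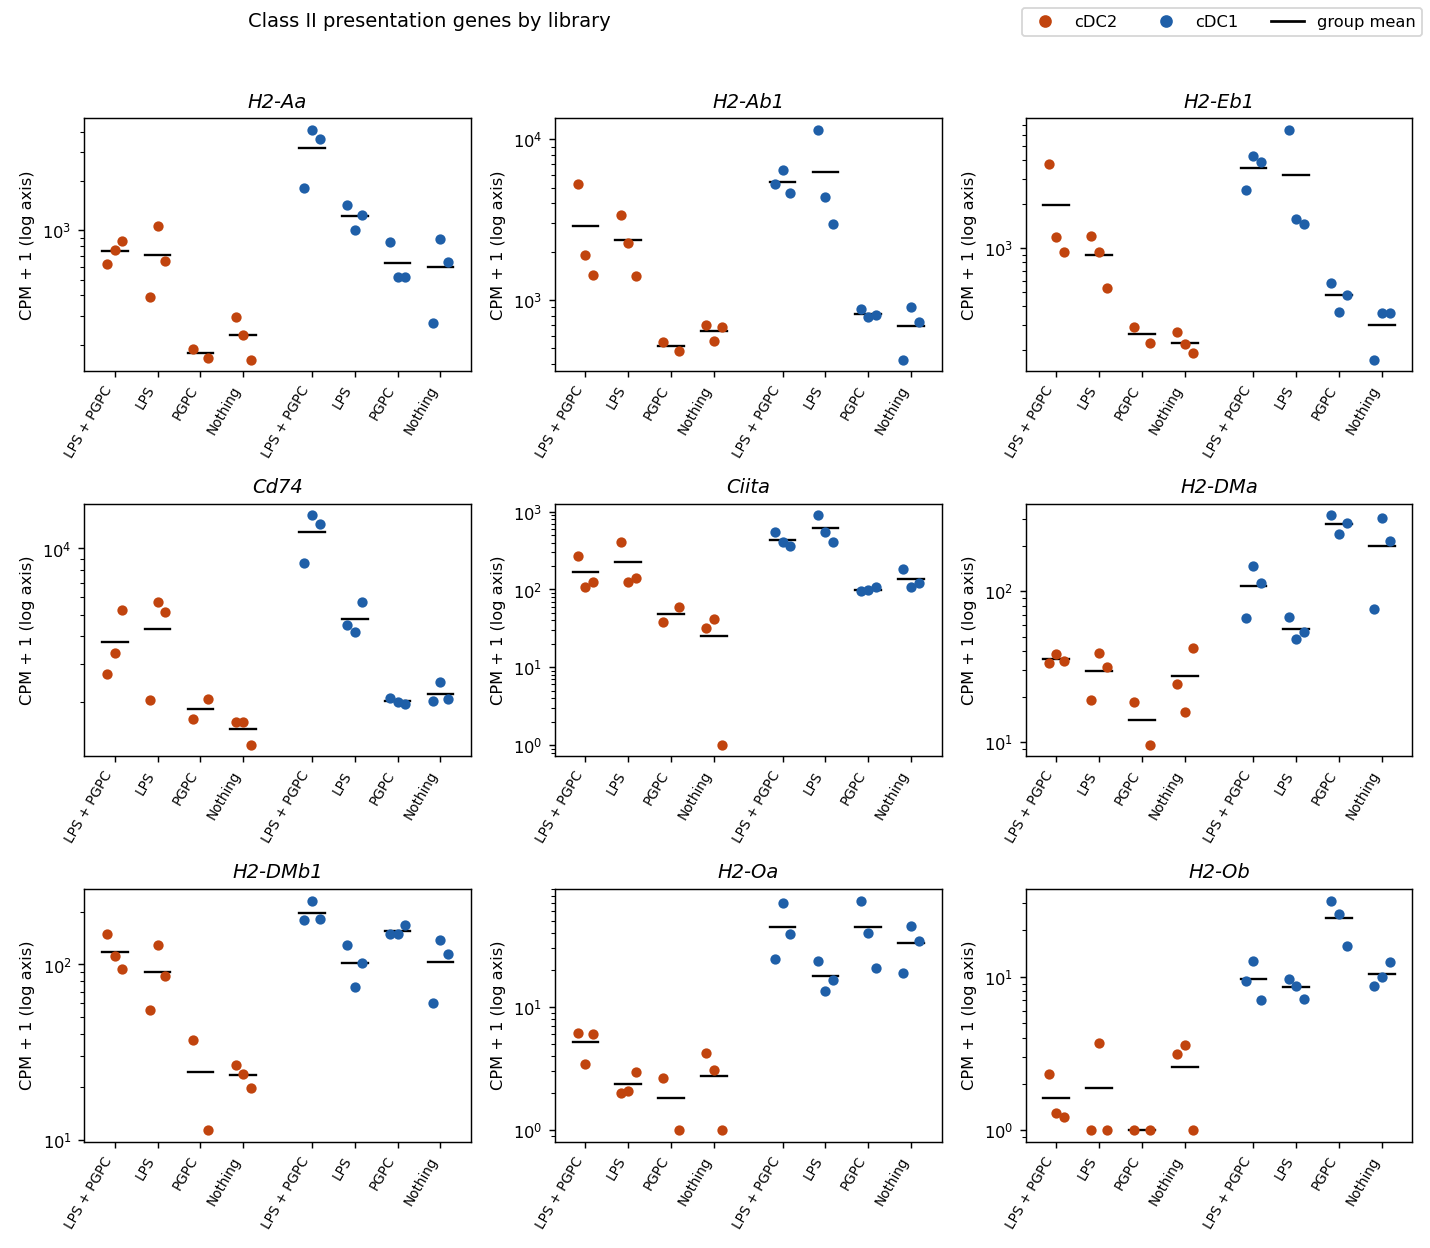
Level of each of the 9 genes in every library, as TMM-scaled CPM plus 1 on a log axis, with cDC2 groups (orange) left of cDC1 groups (blue); bars are group means. H2-Ab1 in libraries given LPS or LPS_PGPC sits between 1407 and 11420 CPM, above the 424 to 905 CPM of the libraries without LPS, whereas H2-Ob lies under 3 CPM in all cDC2 libraries.

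Per kilobase of exon, Cd74 was the most abundant member in all 8 groups, at 898.5 to 7072 CPM per kb as group means, and H2-Ob the least abundant, at 0 to 4.3 CPM per kb. In cDC1 with LPS_PGPC, the order by this length-scaled level was Cd74 (7072), H2-Ab1 (2111), H2-Eb1 (1826), H2-Aa (836), H2-DMb1 (117), Ciita (45.8), H2-DMa (31.2), H2-Oa (30.8) and H2-Ob (1.61). In cDC2 with Nothing it was Cd74 (898.5), H2-Ab1 (250), H2-Eb1 (116), H2-Aa (59.8), H2-DMb1 (13.3), H2-DMa (7.68), Ciita (2.5), H2-Oa (1.25) and H2-Ob (0.293). Neighbours in this order whose libraries overlapped were H2-Ab1 with H2-Eb1, Ciita with H2-DMa and H2-DMa with H2-Oa in the first group, and H2-DMb1 with H2-DMa, Ciita with H2-Oa and H2-Oa with H2-Ob in the second. The 3 chain genes and Cd74 together took 1.82% to 2.89% of the scaled counts in cDC1 with LPS_PGPC, 1.12% to 2.38% with LPS, 0.367% to 0.44% with PGPC and 0.288% to 0.461% with Nothing. In cDC2 these shares were 0.72% to 1.24%, 0.704% to 0.997%, 0.271% to 0.293% and 0.231% to 0.287% in the same order.

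Most of the class II presentation genes were higher with LPS in cDC2, and 4 of 9 in cDC1. In cDC2, 6 of the 9 were higher with LPS than with Nothing and 0 lower, where 5.82% of all genes tested were higher and 2.7% lower. In cDC1, 4 were higher with LPS, where 8.58% of all genes were, and 1 was lower, where 9.36% were. With LPS_PGPC against Nothing, 6 were higher in cDC2 (5.42% of all genes) and 5 in cDC1 (6.58%), and 0 were lower in cDC2 (2.2%) or in cDC1 (5.3%). The median log2 fold change of the 9 genes was 1.62 in cDC2 with LPS and 1.71 with LPS_PGPC, beside 0.03 and 0.07 over all genes; in cDC1 it was 1.03 and 1.69, beside -0.12 and -0.08. Every treated library lay above every Nothing library for 6 members in cDC2 with LPS and 6 with LPS_PGPC, where 14.6% and 18.9% of all genes did. In cDC1 this held for 5 members with LPS and 6 with LPS_PGPC, where 18.9% and 14.8% of all genes did. With LPS in cDC1, 1 member lay below Nothing in every library, where 20.2% of all genes did. The LPS and LPS_PGPC comparisons share the Nothing libraries of their kind. Calls are from edgeR's quasi-likelihood test with Benjamini-Hochberg adjustment over all genes at a threshold of 0.05.

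These calls rest on the spread of the 23 libraries used. When the 12 alum libraries joined the fit, the biological coefficient of variation was 0.846 in place of 0.545, and 0 of 9 members were called in these 4 comparisons, although the fold changes stayed close (H2-Ab1 with LPS in cDC1, 3.18 ± 1.90 SE, adjusted p = 0.408). The ribosomal share moved with treatment: in cDC1 it was 7.7% to 39.1% with LPS_PGPC, 13.9% to 25.9% with LPS and 40.7% to 71.9% with Nothing, and in cDC2 22.4% to 32.9%, 21.3% to 26.4% and 28.6% to 37.3%. Marker sums moved too. The monocyte or macrophage list summed to 248 to 493 CPM in cDC1 with LPS_PGPC, 417 to 972 with LPS and 853 to 1196 with Nothing. In cDC2 the same list summed to 1260 to 3121, 1456 to 3998 and 2451 to 3403 CPM, and the plasmacytoid list to 202 to 468, 183 to 510 and 18.7 to 59.9 CPM, most of it from Bst2, which interferon also induces. In cDC1 the plasmacytoid list summed to 84.4 to 214 CPM with LPS_PGPC, 78.5 to 115 with LPS and 156 to 362 with Nothing, and Siglech, a defining marker, averaged 1.66, 4.74 and 74.2 CPM in the same order. The part of ribosomal RNA or of other cells in the results was not tested.

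**Figure D2:**
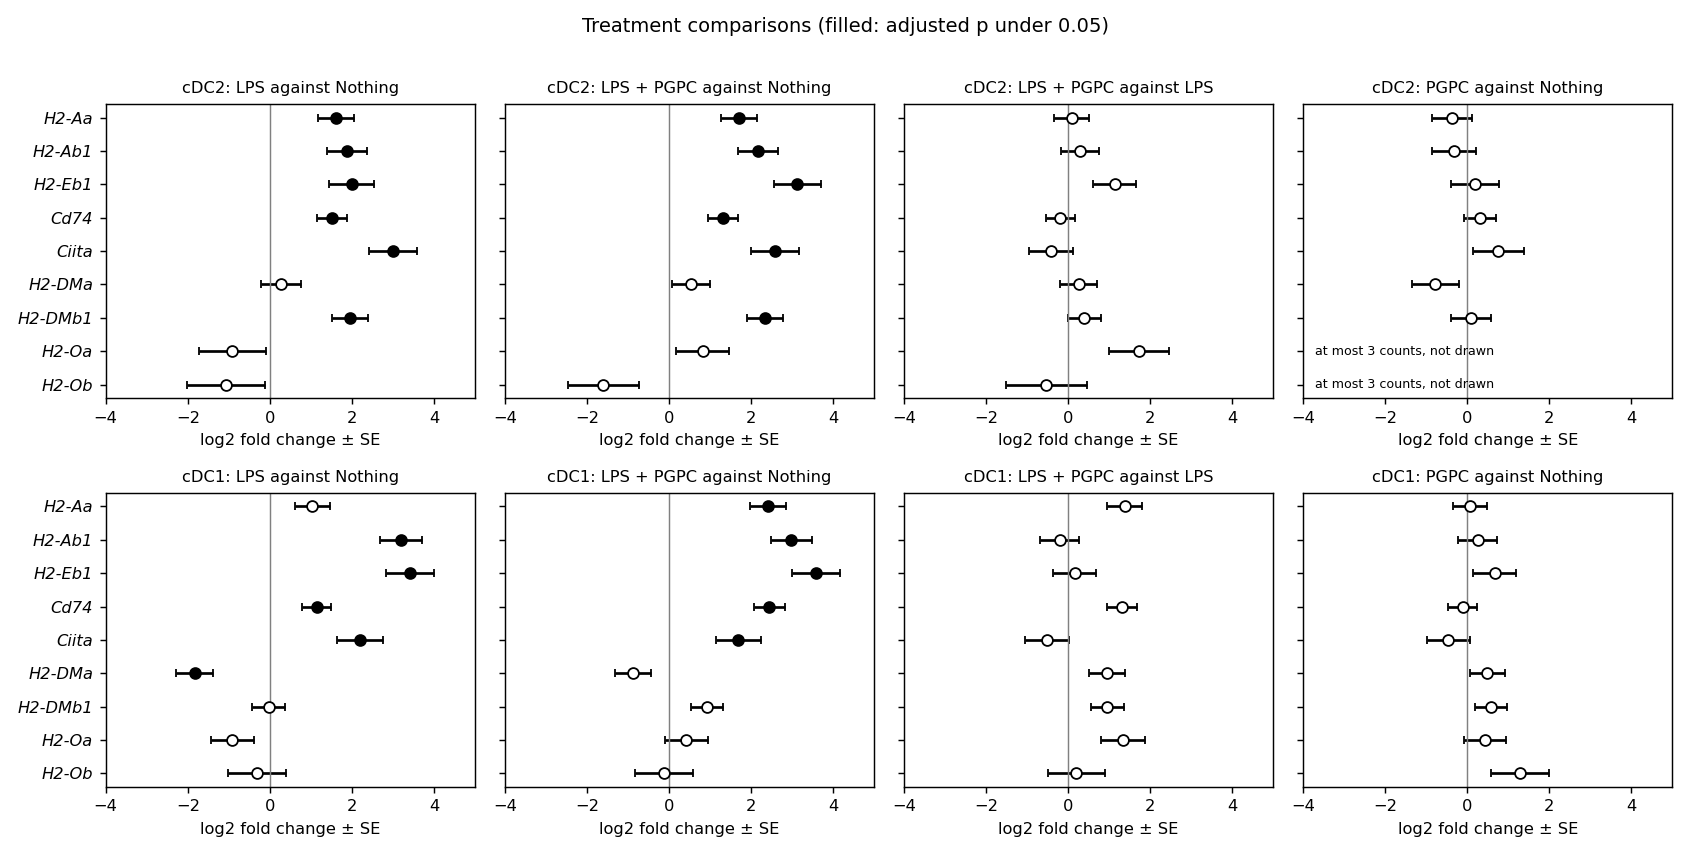
Log2 fold change with its standard error for each gene in 4 treatment comparisons, cDC2 above and cDC1 below; filled points passed an adjusted p of 0.05. The 3 chain genes, Cd74 and Ciita lie right of 0 in the LPS and LPS_PGPC panels against Nothing, and H2-DMa in cDC1 with LPS is the one filled point left of 0. Genes with at most 3 counts in a group are not drawn.

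H2-Ab1, the beta chain of I-A, rose with LPS and with LPS_PGPC in both kinds. In cDC2 it had 5288, 1892 and 1432 CPM with LPS_PGPC and 3390, 2256 and 1407 CPM with LPS, against 694, 554 and 677 CPM with Nothing. All 6 libraries with LPS lay above all 3 without. In cDC1 it had 5267, 6396 and 4600 CPM with LPS_PGPC and 11420, 4379 and 2948 CPM with LPS, against 424, 905 and 728.5 CPM with Nothing. These groups did not overlap either. The log2 fold changes of H2-Ab1 with LPS were 1.87 ± 0.49 in cDC2 (SE, adjusted p = 0.0139) and 3.19 ± 0.51 in cDC1 (adjusted p = 0.000102), and with LPS_PGPC 2.16 ± 0.49 (adjusted p = 0.00572) and 2.98 ± 0.51 (adjusted p = 0.000262). In cDC1 both calls of H2-Ab1 held with each library left out in turn, although without LPS replicate 1 the LPS fold change was 2.41. In cDC2 the LPS call was lost without LPS replicate 4 or any one of the Nothing replicates 4, 5 and 6 (adjusted p up to 0.0749), and the LPS_PGPC call without LPS_PGPC replicate 4 (1.37, adjusted p = 0.0788), whose 5288 CPM stood far above the other 2.

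H2-Eb1, the beta chain of I-E, followed H2-Ab1 closely, with a Pearson r of 0.974 between them on log2(CPM + 1) over 23 libraries. These libraries differ in depth, treatment and kind of cell. In cDC2 H2-Eb1 had 3778, 1193 and 935 CPM with LPS_PGPC and 1219, 941 and 535 CPM with LPS, against 265, 219 and 191 CPM with Nothing. In cDC1 it had 2497, 4271 and 3881 CPM with LPS_PGPC and 6452, 1593 and 1459 CPM with LPS, against 172, 361.5 and 358 CPM with Nothing. No treated library of either kind overlapped its Nothing group. H2-Eb1 rose with LPS by 1.99 ± 0.55 on the log2 scale in cDC2 (adjusted p = 0.0201) and by 3.41 ± 0.57 in cDC1 (adjusted p = 0.00017), and with LPS_PGPC by 3.12 ± 0.57 (adjusted p = 0.000796) and 3.57 ± 0.58 (adjusted p = 0.000153). The call with LPS in cDC2 was lost without LPS replicate 4 or any one Nothing library (adjusted p up to 0.09), and the other 3 calls held with each library left out. Its fold change was 2.35 with LPS in cDC1 without LPS replicate 1, and 2.24 with LPS_PGPC in cDC2 without LPS_PGPC replicate 4.

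H2-Aa, the alpha chain that pairs with H2-Ab1, passed the test in all but 1 of these 4 comparisons. It had 1807, 4113 and 3608 CPM in cDC1 with LPS_PGPC and 1429, 1003 and 1236 CPM with LPS, against 270, 885 and 639 CPM with Nothing. Neither treated group overlapped the Nothing group, yet the LPS difference of 1.03 ± 0.43 had an adjusted p of 0.0953 (95% interval 0.19 to 1.87), while H2-Aa rose with LPS_PGPC by 2.41 ± 0.44 (adjusted p = 0.000594). In cDC2 H2-Aa had 620, 762.5 and 861 CPM with LPS_PGPC and 388, 1068 and 652 CPM with LPS, against 293, 228 and 161 CPM with Nothing. The rise in cDC2 was 1.71 ± 0.44 with LPS_PGPC (adjusted p = 0.0137) and 1.62 ± 0.44 with LPS (adjusted p = 0.0177). H2-Aa in cDC2 lost the LPS_PGPC call without Nothing replicate 5 or 6 (adjusted p up to 0.085) and the LPS call without either of these or LPS replicate 5 (0.131).

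The 2 chains of I-A did not keep a fixed ratio. Counts of H2-Ab1 over H2-Aa were 8.53 in cDC2 with LPS_PGPC, replicate 4, 8.75 in cDC2 with LPS, replicate 4, and 7.99 in cDC1 with LPS, replicate 1. The other 9 libraries with LPS had ratios of 1.27 to 4.36, and the 11 without LPS had 1.02 to 4.21. These ratios are given as a description, with no test. In the same 2 cDC2 libraries Ciita was also highest of its group, and in cDC1 with LPS, replicate 1, H2-Eb1 (6452 CPM) and Ciita (900 CPM) were.

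**Figure D3:**
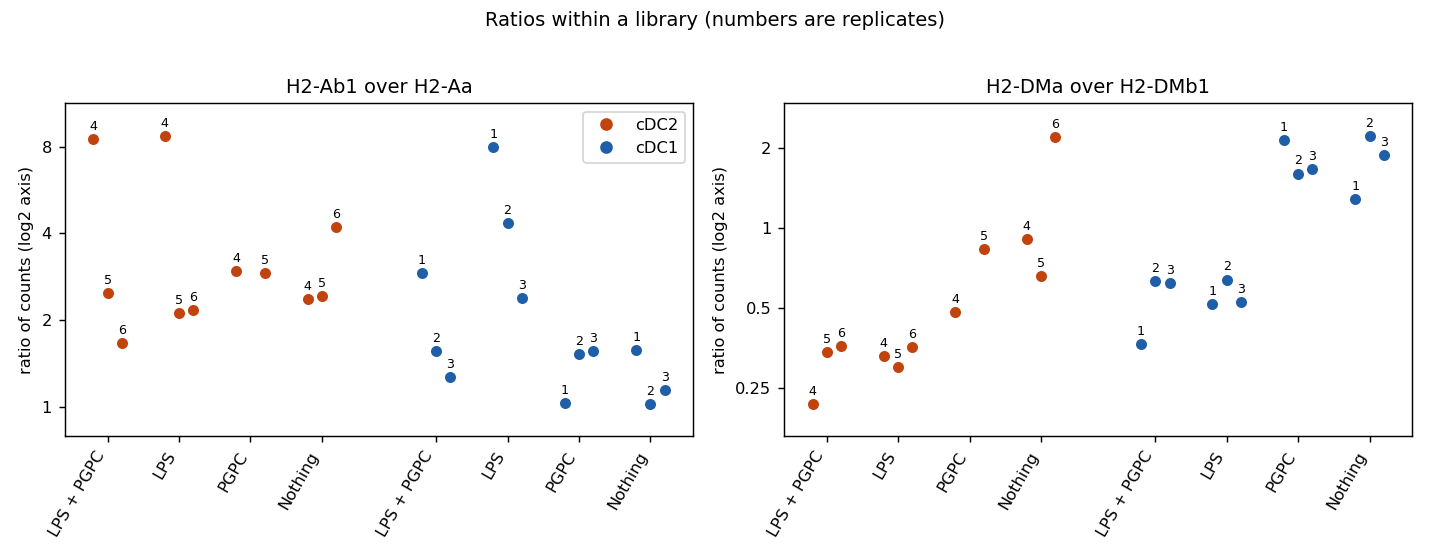
Ratio of deposited counts of H2-Ab1 over H2-Aa (left) and of H2-DMa over H2-DMb1 (right) in each library, on a log2 axis, cDC2 groups left of cDC1 groups, with the replicate number at each point. The H2-Ab1 ratio reaches 7.99 to 8.75 in 3 libraries with LPS. The H2-DMa ratio is 0.366 to 0.64 in cDC1 with LPS or LPS_PGPC and 1.28 to 2.22 in cDC1 without.

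Cd74, the invariant chain, reached its highest levels in cDC1 with LPS_PGPC. It had 8621, 14150 and 12850 CPM there and 4475, 4190 and 5710 CPM in cDC1 with LPS, against 2018, 2462 and 2070 CPM with Nothing. The 3 groups did not overlap one another. Cd74 was higher by 2.44 ± 0.38 with LPS_PGPC (adjusted p = 9.29e-05), which held with each library left out, and by 1.13 ± 0.36 with LPS (adjusted p = 0.031), which was lost without any one of the 6 libraries (adjusted p 0.0558 to 0.151). In cDC2 Cd74 had 2678, 3353 and 5238 CPM with LPS_PGPC and 2043, 5702 and 5130 CPM with LPS, against 1620, 1626 and 1280 CPM with Nothing. All treated cDC2 libraries again lay above those with Nothing. The rise in cDC2 was 1.32 ± 0.36 with LPS_PGPC (adjusted p = 0.0237) and 1.51 ± 0.37 with LPS (adjusted p = 0.00799). Cd74 in cDC2 lost the LPS_PGPC call without LPS_PGPC replicate 6 or any one Nothing library (adjusted p up to 0.131) and the LPS call without Nothing replicate 6 or LPS replicate 5 or 6 (0.0514).

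Ciita, the transactivator of class II genes, rose with LPS in both kinds. In cDC2 it had 266, 108 and 125 CPM with LPS_PGPC and 406.5, 124 and 138 CPM with LPS, against 30.5, 41.1 and 0 CPM with Nothing. The library at 0 is Nothing replicate 6, with 243870 counts in all, where the 1 count of Irf1 stood for 3.74 CPM. In cDC1 Ciita had 546, 407 and 357 CPM with LPS_PGPC and 900, 553 and 410 CPM with LPS, against 182, 106 and 120 CPM with Nothing. The treated groups lay above Nothing in both kinds. The rise with LPS was 3.00 ± 0.59 in cDC2 (adjusted p = 0.00118) and 2.2 ± 0.55 in cDC1 (adjusted p = 0.00705), and with LPS_PGPC 2.58 ± 0.58 in cDC2 (adjusted p = 0.00472). These 3 held with each library left out, although the rise with LPS in cDC2 was 2.21 without LPS replicate 4. The rise of Ciita with LPS_PGPC in cDC1, 1.69 ± 0.55 (adjusted p = 0.0436), was lost without any one of 6 libraries (adjusted p 0.056 to 0.151).

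The 2 chains of H2-DM, the peptide exchange factor, took different courses. H2-DMa, the alpha chain, fell in cDC1 with LPS, to 66.1, 47.2 and 53 CPM, against 75.3, 303 and 212.5 CPM with Nothing, and the groups did not overlap. The log2 fold change was -1.83 ± 0.45 (adjusted p = 0.00548), and it stayed under the threshold with each library left out (adjusted p up to 0.0495, without Nothing replicate 2). With LPS_PGPC, H2-DMa in cDC1 had 65.5, 145 and 112 CPM, which overlapped Nothing (-0.88 ± 0.43, adjusted p = 0.204). In cDC2 H2-DMa had 32.3, 37.6 and 33.5 CPM with LPS_PGPC and 17.9, 38.2 and 30.3 CPM with LPS, against 23.3, 15 and 41.2 CPM with Nothing, and neither difference passed the test (adjusted p = 0.592 and 0.841).

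H2-DMb1, a beta chain of H2-DM, rose in cDC2. It had 148, 110 and 92.8 CPM there with LPS_PGPC and 54.3, 128 and 85.1 CPM with LPS, against 25.7, 22.7 and 18.7 CPM with Nothing. Both treated groups lay above Nothing and overlapped each other, with log2 fold changes against Nothing of 2.34 ± 0.43 (adjusted p = 0.000904) and 1.95 ± 0.43 (adjusted p = 0.0037) that held with each library left out. In cDC1 H2-DMb1 had 179, 230 and 180 CPM with LPS_PGPC and 128, 73.8 and 101 CPM with LPS, against 59, 136.5 and 113 CPM with Nothing. Its differences there were 0.93 ± 0.40 (adjusted p = 0.137) and -0.03 ± 0.40 (adjusted p = 0.971). H2-DMa over H2-DMb1 was 0.218 to 0.361 in 6 cDC2 libraries with LPS and 0.485 to 2.2 in 5 without, and 0.366 to 0.64 in 6 cDC1 libraries with LPS and 1.28 to 2.22 in 6 without. Reads of H2-DMb1 may be shared with its close relative H2-DMb2; over the sum of both, the ratio was still 0.183 to 0.31 and 0.438 to 1.57 in cDC2, and 0.241 to 0.442 and 1.09 to 2 in cDC1, each with LPS first.

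H2-Oa and H2-Ob, the chains of the H2-DM inhibitor, did not pass the test in any treatment comparison. H2-Oa in cDC1 had 23.5, 68.5 and 37.9 CPM with LPS_PGPC, 22.6, 12.4 and 15.6 CPM with LPS and 72, 38.8 and 19.8 CPM with PGPC, against 18, 44.4 and 33.2 CPM with Nothing, and each treated group overlapped the one with Nothing. H2-Ob in cDC1 had 8.35, 11.6 and 6.09 CPM with LPS_PGPC and 8.66, 7.68 and 6.18 CPM with LPS, against 7.7, 8.98 and 11.4 CPM with Nothing. With PGPC, H2-Ob in cDC1 had 30.2, 24.4 and 14.8 CPM, all above Nothing, as were 8.46% of all genes. The difference of 1.29 ± 0.70 had an adjusted p of 0.382. In cDC2 both genes were near the limit of detection: H2-Oa gave 65 counts in 3 libraries with LPS_PGPC, 6 in 3 with LPS, 3 in 2 with PGPC and 20 in 3 with Nothing, and H2-Ob gave 11, 5, 0 and 18.

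PGPC alone changed no class II gene by the test. In cDC2, 0 of 9 members were called, as were 0.016% of all genes, and in cDC1 0 of 9, where 2.08% of all genes were. At an unadjusted p under 0.05 the counts were 1 in cDC2 (H2-Ob, with 0 counts) and 0 in cDC1, and DESeq2 also called 0 in each. H2-Ab1 had 551 and 480.5 CPM in cDC2 with PGPC, against 694, 554 and 677 CPM with Nothing, and 878, 782 and 802.5 CPM in cDC1 with PGPC, against 424, 905 and 728.5 CPM. The log2 fold change of H2-Ab1 was -0.32 ± 0.54 in cDC2 (95% interval -1.36 to 0.73) and 0.26 ± 0.47 in cDC1 (-0.67 to 1.18), and that of Cd74 0.31 ± 0.40 in cDC2 (-0.47 to 1.09) and -0.11 ± 0.36 in cDC1 (-0.81 to 0.59). For H2-Oa in cDC2, counts of 3 with PGPC and 20 with Nothing give a level 2.04-fold higher with Nothing, with a counting interval of 0.604 to 10.7. The ribosomal share was 52% and 60.9% in cDC2 with PGPC, against 28.6% to 37.3% with Nothing. In cDC1 it went the other way, with 14.1% to 35.4% with PGPC, against 40.7% to 71.9% with Nothing. The monocyte or macrophage list summed to 1362 to 2013 CPM in cDC1 with PGPC, against 853 to 1196 CPM with Nothing. In cDC2 this list summed to 3051 to 3692 CPM, against 2451 to 3403 CPM. Mast cell or basophil markers summed to 47.2 to 71.9 CPM and neutrophil markers to 175.5 to 932 CPM in cDC1 with PGPC, against at most 0.253 and 114 CPM with Nothing. The part of ribosomal RNA or of other cells in the PGPC comparisons was not tested.

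Adding PGPC to LPS gave no call among the 9 genes. In cDC2, 0 were called, as were 0.385% of all genes, with 2 at an unadjusted p under 0.05 and 0 by DESeq2. In cDC1, 0 were called, as were 1.93% of all genes, with 5 at an unadjusted p under 0.05. The 2 nearest in cDC1 were Cd74, 1.31 ± 0.36 higher with LPS_PGPC than with LPS (adjusted p = 0.0599), and H2-Aa, 1.38 ± 0.43 higher (adjusted p = 0.0972), and for both every LPS_PGPC library lay above every LPS library. In all, 4 of 9 members had such groups without overlap in cDC1, where 13.6% of all genes did, and the median of the 9 was 0.95, beside 0.07 over all genes. DESeq2 called both Cd74 (adjusted p = 0.00534) and H2-Aa (0.0218), as did edgeR without LPS_PGPC replicate 1 (0.0403 and 0.0496), and edgeR with no filter called H2-Aa (0.045). Over all genes, DESeq2 called 712 in this comparison, against 241 with edgeR. H2-Ab1 and H2-Eb1 differed by -0.21 ± 0.47 and 0.16 ± 0.52 in the same comparison (adjusted p = 0.886 and 0.922), and Ciita by -0.51 ± 0.53 (0.683).

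Between 3 and 5 of the 9 class II genes were lower in cDC2 than in cDC1 at each treatment. Of the 9 genes, 5 were lower in cDC2 with LPS_PGPC (2.54% of all genes were lower), 3 with LPS (2.21%), 5 with PGPC (5.22%) and 5 with Nothing (6.14%), and 0 were higher, where 4.6%, 5.59%, 6.83% and 4.01% of all genes were in the same order. All 36 fold changes were below 0, although that of H2-Ab1 with Nothing, -0.10 ± 0.47, became 0.01 with RLE factors or DESeq2, and it and those of Cd74 with LPS and with PGPC and of H2-DMb1 with LPS turned above 0 without single libraries. Every cDC2 library lay below every cDC1 library for 7, 5, 8 and 6 members at LPS_PGPC, LPS, PGPC and Nothing, where 13%, 13.5%, 24.1% and 19.8% of all genes did. The median log2 fold change was -1.65, -1.41, -1.83 and -2.15 in the same order, beside -0.03, -0.04, -0.19 and -0.1 over all genes. The PGPC median was still -1.83 with H2-Ob set at its bound.

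**Figure D4:**
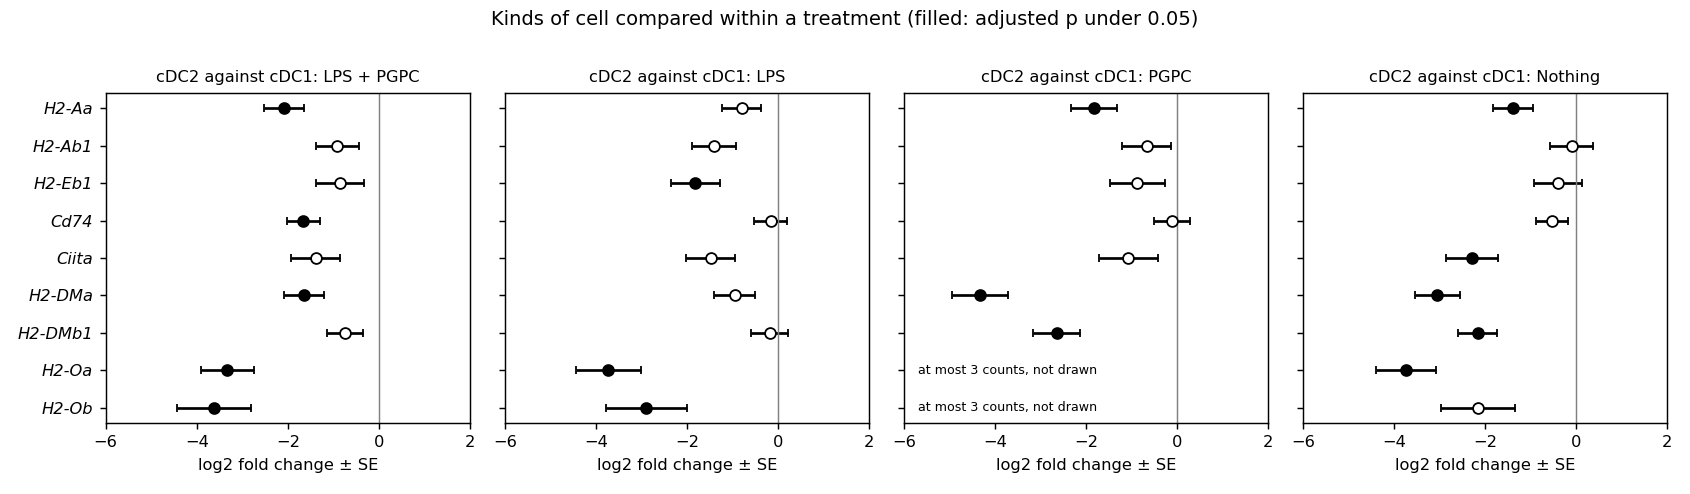
Log2 fold change of cDC2 over cDC1, with its standard error, at each treatment; filled points passed an adjusted p of 0.05. H2-Oa lies at -3.33 to -3.73 in the 3 panels where it is drawn, and all points lie left of 0. Genes with at most 3 counts in the cDC2 group are not drawn.

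H2-O was low in cDC2 at every treatment. H2-Oa had 5.2, 2.44 and 5.01 CPM in cDC2 with LPS_PGPC, against 23.5, 68.5 and 37.9 CPM in cDC1, and no cDC2 library reached the lowest cDC1 library of its treatment. Its log2 fold change was -3.33 ± 0.58 with LPS_PGPC (adjusted p = 0.000651), -3.73 ± 0.71 with LPS (adjusted p = 0.00118) and -3.73 ± 0.66 with Nothing (adjusted p = 0.000637), each held with every library left out. With PGPC, 3 counts in cDC2 and 2250 in cDC1 give a level 41-fold higher in cDC1, with a counting interval of 14 to 199 (adjusted p of the edgeR test 0.000549). H2-Ob had 1.34, 0.305 and 0.228 CPM in cDC2 with LPS_PGPC, against 8.35, 11.6 and 6.09 CPM in cDC1, a log2 difference of -3.63 ± 0.82 (adjusted p = 0.00756) that was called under every setting tried. In cDC2, 9 of the 11 counts of H2-Ob with LPS_PGPC were in replicate 4, and all 5 with LPS were in replicate 5. With PGPC, H2-Ob had 0 counts in cDC2 and 1070 in cDC1, so it was at least 6.79-fold lower in cDC2, against a floor of 3 counts per library (adjusted p of the edgeR test 0.00203, but 0.0615 without cDC2 replicate 4). With LPS, H2-Ob was lower by a log2 fold change of -2.89 ± 0.89 (adjusted p = 0.0452), which was lost without cDC2 replicate 4 or 6 or any one cDC1 library (up to 0.182), and with Nothing it did not pass edgeR's test (-2.15 ± 0.81, adjusted p = 0.0953) but was called by DESeq2 (0.0378). Over all genes, DESeq2 called 1775 between the kinds with Nothing, against 1265 with edgeR.

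The H2-DM chains were lower in cDC2 where no LPS was given. H2-DMa had 17.5 and 8.61 CPM in cDC2 with PGPC, against 316, 237 and 279 CPM in cDC1, and 23.3, 15 and 41.2 CPM in cDC2 with Nothing, against 75.3, 303 and 212.5 CPM in cDC1. The groups did not overlap, with log2 fold changes of -4.32 ± 0.62 (adjusted p = 8.51e-05) and -3.05 ± 0.49 (adjusted p = 0.000313) that held with each library left out (with PGPC, -5.02 without cDC2 replicate 4). H2-DMb1 was lower in cDC2 by a log2 fold change of -2.65 ± 0.51 with PGPC (adjusted p = 0.00147, but 0.0556 without cDC2 replicate 5, and -3.92 without cDC2 replicate 4) and -2.17 ± 0.43 with Nothing (adjusted p = 0.00203). With LPS_PGPC, H2-DMa differed by -1.65 ± 0.44 (adjusted p = 0.0245), a call lost without cDC1 replicate 2 or 3 or any one cDC2 library (up to 0.106), and H2-DMb1 by -0.75 ± 0.40 (adjusted p = 0.296). With LPS neither passed (H2-DMa -0.95 ± 0.45, adjusted p = 0.221; H2-DMb1 -0.18 ± 0.40, adjusted p = 0.854).

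Among the other members, H2-Aa was lower in cDC2 with LPS_PGPC by a log2 fold change of -2.09 ± 0.44 (adjusted p = 0.00416), which held with each library left out. Its calls with PGPC (-1.83 ± 0.51, adjusted p = 0.02) and Nothing (-1.39 ± 0.43, adjusted p = 0.0416) did not: the first was lost without cDC1 replicate 1 or either cDC2 library (up to 0.176), and the second without cDC1 replicate 2 or 3 or any one cDC2 library (up to 0.236). Cd74 was lower in cDC2 with LPS_PGPC (-1.66 ± 0.37, adjusted p = 0.00616) and close to cDC1 with LPS (-0.16 ± 0.36, 95% interval -0.86 to 0.54). Ciita was lower in cDC2 with Nothing (-2.28 ± 0.57, adjusted p = 0.011), and both calls held with each library left out. H2-Eb1 was lower in cDC2 with LPS (-1.82 ± 0.54, adjusted p = 0.0364), but the call was lost without cDC1 replicate 1 (-0.76, adjusted p = 0.496) or cDC2 replicate 5 or 6. H2-Ab1 passed edgeR's test at no treatment, with log2 fold changes of -0.92 ± 0.48 with LPS_PGPC, -1.41 ± 0.48 with LPS, -0.67 ± 0.54 with PGPC and -0.10 ± 0.47 with Nothing. With LPS, however, H2-Ab1 was called by DESeq2 (adjusted p = 0.0415), by edgeR with no filter (0.0277) and without cDC1 replicate 3 (0.0446) or cDC2 replicate 4 (0.0346). Over all genes, DESeq2 called 1409 between the kinds with LPS, against 972 with edgeR. Ciita with LPS, at -1.48 ± 0.54 (adjusted p = 0.0993), was likewise called by DESeq2 (0.0434), with no filter (0.0167) and without cDC2 replicate 4 (0.0128), and with LPS_PGPC (-1.39 ± 0.54, adjusted p = 0.126) with no filter (0.0293).

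Markers of other cells differed between the kinds alongside these genes. The monocyte or macrophage list summed to 1260 to 3998 CPM in cDC2 libraries and 248 to 2013 CPM in cDC1 libraries. The B cell list summed to 4.93 to 33.7 CPM in cDC2 and 131 to 645 CPM in cDC1, in cDC1 nearly all from Ighm, while Cd79a had 0 counts in all cDC2 libraries and group means of at most 5.86 CPM in cDC1. Neutrophil markers summed to at most 3.91 CPM in cDC2 and 932 CPM in cDC1. The plasmacytoid list summed to 28.5 to 36.2 CPM in cDC2 with PGPC, against 275 to 373 CPM in cDC1, and to 18.7 to 59.9 CPM in cDC2 with Nothing, against 156 to 362 CPM in cDC1; with LPS or LPS_PGPC it was 183 to 510 CPM in cDC2, against 78.5 to 214 CPM in cDC1. Siglech averaged at most 0.797 CPM in any cDC2 group. Replicate numbers 4 to 6 are used only in cDC2 and 1 to 3 only in cDC1, so a preparation named by those numbers and the kind of cell cannot be told apart. The part of other cells in the differences between the kinds was not tested.

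Whether the treatment effects differed between cDC2 and cDC1 was tested by interactions. For LPS against Nothing 0 of 9 were called, as were 1.33% of all genes, with 2 at an unadjusted p under 0.05. These were H2-DMa, whose LPS effect was 2.10 ± 0.65 higher on the log2 scale in cDC2 than in cDC1 (adjusted p = 0.118), and H2-DMb1, 1.98 ± 0.58 higher (adjusted p = 0.0964), and DESeq2 called both. Without cDC2 LPS replicate 4 edgeR called both, and without cDC1 Nothing replicate 1 it called 1, H2-DMa. Over all genes, DESeq2 called 419 for this interaction, against 166 with edgeR. For PGPC against Nothing 0 were called (0.168% of all genes, 1 unadjusted), and for LPS_PGPC against LPS 0 (0.00802%, 2 unadjusted). In the last, Cd74 had -1.50 ± 0.51 (adjusted p = 0.476) and H2-Aa -1.29 ± 0.60 (adjusted p = 0.606). The larger rise of H2-Ab1 and H2-Eb1 with LPS in cDC1 was not called as a difference (-1.31 ± 0.67 and -1.42 ± 0.75, adjusted p = 0.394 and 0.408).

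The other genes of the pathway were taken from 3 lists. Of the other class II region genes, H2-Ea-ps had 0 counts in every library and 2 of 3 were tested. H2-DMb2, a second H2-DM beta gene, and H2-Eb2 were both higher in cDC1 with LPS (2.10 ± 0.44, adjusted p = 0.00159, and 2.42 ± 0.83, adjusted p = 0.0445) and with LPS_PGPC (2.65 ± 0.45, adjusted p = 0.000256, and 4.22 ± 0.87, adjusted p = 0.0017). In cDC2, 0 of these 2 were called with LPS and 1 with LPS_PGPC, H2-DMb2 (2.49 ± 0.52, adjusted p = 0.00252). H2-DMb2 was lower in cDC2 than in cDC1 at all 4 treatments, by log2 fold changes of -1.78 to -3.75.

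Of 8 genes of antigen processing and surface turnover, Cd83, a surface protein that spares class II from turnover, rose in all 4 comparisons of LPS or LPS_PGPC against Nothing. In cDC2 Cd83 had 109, 186 and 171 CPM with LPS_PGPC and 180, 200.4 and 227 CPM with LPS, against 60.3, 38 and 52.4 CPM with Nothing. In cDC1 it had 1131, 568 and 588 CPM with LPS_PGPC and 329, 540 and 589 CPM with LPS, against 37.6, 30.4 and 43.1 CPM with Nothing. Its log2 fold changes were 1.64 ± 0.40 and 2.02 ± 0.40 in cDC2 and 4.36 ± 0.43 and 3.71 ± 0.42 in cDC1, each pair with LPS_PGPC first (adjusted p at most 0.00941). Ctsl, cathepsin L, which degrades the invariant chain in some cells, fell in cDC1 with LPS_PGPC (-3.62 ± 0.46, adjusted p = 8.58e-06) and with LPS (-3.38 ± 0.45, adjusted p = 1.23e-05), and in cDC2 with LPS (-1.90 ± 0.43, adjusted p = 0.00424). In cDC2 with LPS_PGPC, Ctsl had 322, 316 and 259 CPM, against 392, 290 and 269 CPM with Nothing, and was not called. Ifi30, a reductase that opens disulphide bonds of antigens, rose with LPS_PGPC in both kinds (2.69 ± 0.61 in cDC2, adjusted p = 0.00522; 2.49 ± 0.57 in cDC1, adjusted p = 0.00441), and in cDC1 it was also higher than with LPS (2.42 ± 0.57, adjusted p = 0.0247). March8, a ubiquitin ligase that can remove class II from the surface, was higher in cDC2 than in cDC1 at all 4 treatments, by log2 fold changes of 1.56 to 2.75. Ctss, cathepsin S, which trims the invariant chain, was higher in cDC2 than in cDC1 with LPS_PGPC (2.18 ± 0.59, adjusted p = 0.0246). It had 5292, 1716 and 1201 CPM there in cDC2, the highest in replicate 4, against 367, 771 and 677 CPM in cDC1. With PGPC alone, 0 of the 8 were called in either kind.

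Of the 13 transcription factors and regulators of class II, 12 were tested. In cDC2, 2 were higher with LPS, among them Irf1, an interferon response factor (2.51 ± 0.45, adjusted p = 0.00045), and 3 with LPS_PGPC, where 5.82% and 5.42% of all genes were. In cDC1, 3 were higher and 2 lower with LPS, and 2 higher and 1 lower with LPS_PGPC, where 8.58% and 9.36% of all genes were higher and lower with LPS and 6.58% and 5.3% with LPS_PGPC. These included Irf8, a factor of cDC1 identity, which fell with LPS (-1.91 ± 0.44, adjusted p = 0.00304) and with LPS_PGPC (-1.30 ± 0.43, adjusted p = 0.0477). Prdm1, a known repressor of Ciita, rose in cDC1 with LPS_PGPC (3.08 ± 0.69, adjusted p = 0.00385). Irf1 had 75.8, 125 and 142 CPM in cDC2 with LPS, against 24.9, 23.2 and 3.74 CPM with Nothing, and 61.5, 70.9 and 92.1 CPM in cDC1 with LPS, against 72.7, 104 and 66.6 CPM with Nothing. The cDC2 groups were apart and the cDC1 groups overlapped, and its LPS effect differed between the kinds by 2.62 ± 0.60 (adjusted p = 0.0233), the one interaction called in the 3 lists. Between the kinds, Irf8 was lower in cDC2 at all 4 treatments, by log2 fold changes of -1.50 to -3.53. Irf4, which is held to mark cDC2, was lower in cDC2 at 3 of the 4, by -2.22 with LPS_PGPC, -2.43 with PGPC and -2.84 with Nothing.

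By Pearson correlation of log2(CPM + 1) over the 23 libraries, the members fell into related levels. Cd74 went with H2-Aa (r = 0.899), and H2-Oa with H2-Ob (r = 0.9) and H2-DMa (r = 0.867), while H2-DMa and H2-Ab1 had r = 0.043. Among genes outside the 9 with a mean of at least 5 CPM, those most like H2-Ab1 were M6pr, Pnkd, Ghitm, Apol7c and Rrad (r = 0.92 to 0.931). For Cd74 they were Ticam1, Bcat2, Rilpl2, Bhlhe40 and Tmem176a (0.891 to 0.906), for Ciita Tagap, Chfr, Dennd3 and Itm2c (0.876 to 0.899), and for H2-Ob Sept6, Map4k1, BC035044, Rnase6 and Napsa (0.895 to 0.919). The libraries differ in treatment and kind of cell, so these values are a description.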

How the data were processed

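RNA was extracted from bone marrow cultures, turned into cDNA by Smart-Seq2 and sequenced as paired ends, per the labels' protocols. The authors deposited expected counts for each symbol, made with RSEM on GRCm38 after bcl2fastq 2.2, per the submitters' processing notes. No RSEM version, aligner or annotation release is given in the sources used here. Of the nonzero values 21% were not whole, so counts were rounded.

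Cell type and treatment labels set the groups. A single fit of group means over 23 libraries was made with edgeR 4.0.16 (quasi-likelihood, robust), limma 3.58.1 and R 4.3.3, with TMM factors (0.473 to 1.529) and filterByExpr (minimum count 10, minimum total 15). The 15 contrasts were adjusted by Benjamini-Hochberg over 12463 genes, with a threshold of 0.05. Of these contrasts, only LPS against Nothing in cDC1 and in cDC2 were run on simulated data. SE is the fold change over the root of F. Where a group held 0 counts, folds are bounds at 3 counts per library; with 1 to 3 counts, an exact 95% interval is given. These exact intervals and the floors cover counting error only. The 95% intervals of fold changes come from the SE by a normal approximation. P-values measure the spread between these libraries. Reads carry no strand.

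The 9 members and the lists were chosen with earlier results of these data known. All members were named, with up to 4 called genes per list and comparison, and for H2-Ab1, Cd74, Ciita and H2-Ob the 5 most correlated genes; some genes this rule picks are not reported here. Alternatives were RLE factors, no filter, DESeq2 1.42.0, all 36 libraries, a replicate block and each library left out; 2 further sets of libraries were added after seeing the data. Positions are from GENCODE M21, where 52846 symbols were found.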

Additional observations from a re-analysis of the deposited data

How the results depend on the processing

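Of 40 gene results called with 23 libraries, 355 of 497 pairs of gene and setting kept the call, 142 lost it and 0 reversed; 1 was kept under every setting. Most losses came with the alum libraries. With all 36 libraries 0 members were called in the 4 comparisons of LPS or LPS_PGPC against Nothing and for cDC2 against cDC1 with LPS or Nothing, and 1 for cDC2 against cDC1 with PGPC and 1 with LPS_PGPC. Using 35 libraries, an alternative chosen after seeing the data that leaves out cDC2 PGPC replicate 6, the counts were the same (0 in those 6, 1 and 1), with a biological coefficient of variation of 0.846. Adding only that replicate to the 23 libraries, also chosen after seeing the data, left 35 calls over the 12 comparisons, with a coefficient of 0.53. DESeq2 called 2 members for LPS_PGPC against LPS in cDC1, 5 for cDC2 against cDC1 with LPS and 2 for the LPS interaction, and no filter called 1 for LPS_PGPC against LPS in cDC1. Over all genes, DESeq2 called 712, 1409 and 419 in these comparisons in the same order, and edgeR 241, 972 and 166. With each library left out in turn, the members called ranged over 4 to 4 (LPS against Nothing, cDC1), 4 to 4 (LPS_PGPC against Nothing, cDC1), 2 to 5 (LPS, cDC2), 4 to 6 (LPS_PGPC, cDC2), 0 to 2 (LPS_PGPC against LPS, cDC1), 4 to 5, 1 to 4, 3 to 5 and 4 to 5 (cDC2 against cDC1 with LPS_PGPC, LPS, PGPC and Nothing) and 0 to 2 (LPS interaction), and stayed at 0 for the other 5. RLE factors moved the median of all genes by at most 0.09. The replicate number as a block called 5 members for LPS and 5 for LPS_PGPC against Nothing in cDC1, 6 and 6 in cDC2 and 0 in the other 4 treatment comparisons, as without it. The numbers do not pair the libraries: of 33 same-numbered pairs, 12 had correlated deviations over 0.1 (range -0.39 to 0.71), and 13 of 23 libraries went best with their own number. Low depth limits H2-Oa and H2-Ob in cDC2, down to 243870 counts in a library.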
